A study of Mus musculus with 8 samples.

Results

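The genes described here are the replication-dependent histone genes, taken as every row of the gene count table whose symbol begins with Hist1h, Hist2h, Hist3h or Hist4h. They are 69 of 27036 rows. By the cluster name in the symbol, 55 are *Hist1* on chromosome 13, 11 *Hist2* on chromosome 3, 2 *Hist3* on chromosome 11 and 1 *Hist4* on chromosome 6. *Hist1h2al*, annotated from 51298057, lies far from the other *Hist1* genes. By family they comprise 6 H1, 19 H2A, 18 H2B, 13 H3 and 13 H4 genes, and *Hist2h3c1* fills 2 rows. The libraries hold RNA from mouse prostate tissue, with 3 WT, 3 PIN (prostatic intraepithelial neoplasia, a precursor lesion) and 2 PCa (prostate adenocarcinoma) samples. Per the study's methods, PIN and PCa arose in mice of genotype *R26* mTmG/hAR:*Osr1* Cre/+. There, Cre from the *Osr1* locus switches on a human androgen receptor transgene and a membrane GFP. The WT mice were *R26* mTmG/+:*Osr1* Cre/+ controls, so every group carried the reporter and Cre, on a mixed C57BL/6 and 129S1/SvImJ background, and the labels give no age for these libraries. Cre acts only in *Osr1*-lineage cells, and each library is a mean over all cells of a tissue piece, so that fewer cells of a type and less RNA per cell cannot be told apart. The human transgene has no row in the table.

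Replication-dependent histone genes supply the core histones H2A, H2B, H3 and H4 and the linker histone H1 that package newly copied DNA. Their mRNAs are made in bulk in S phase and normally end in a conserved stem-loop in place of a poly(A) tail. Stem-loop binding protein (SLBP) binds it, and the U7 small nuclear ribonucleoprotein directs cleavage just behind it. A few of these genes also give polyadenylated transcripts that run past the stem-loop, a form known from differentiated, non-dividing cells. Library preparation here removed ribosomal RNA and did not select for poly(A) tails, so a tail was not needed for capture.

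A stem-loop was searched on the gene's strand within 100 bases after each annotated stop codon, as the 16-base pattern GGNNNTNNNNANNNCC with a fully paired stem of 6 bases and a loop of 4. It was found in 63 of the 67 histone genes that could be searched and in 77 of 21887 protein-coding genes (0.352%) overall. It began 22 to 59 bases after the stop codon, with a median of 31. The form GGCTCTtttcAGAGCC stood in 39 genes, of the H1, H2A, H2B and H3 families, and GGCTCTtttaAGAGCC in 9. The H4 genes instead carried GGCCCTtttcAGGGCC in 8 cases, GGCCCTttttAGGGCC in 2 and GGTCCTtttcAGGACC in 2. Among the other genes with a match was *H2afx*, a histone variant gene outside these clusters. The sequences below show the match with 7 bases on either side for 8 genes that the results turn on, read 5′ to 3′ from mm9, with the stem in capitals and the loop in lower case between its arms.
Hist1h1c: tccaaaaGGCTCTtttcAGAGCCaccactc
Hist1h1d: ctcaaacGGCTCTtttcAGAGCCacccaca
Hist1h1b: ccccaaaGGCTCTtttcAGAGCCacctaga
Hist3h2a: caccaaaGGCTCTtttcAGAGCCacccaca
Hist1h2bc: ttccaaaGGCTCTtttcAGAGCCacccact
Hist1h2be: aaccaaaGGCTCTtttcAGAGCCacccaac
Hist2h4: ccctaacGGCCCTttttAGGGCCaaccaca
Hist1h4i: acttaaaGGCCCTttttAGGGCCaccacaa

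These windows lie at chr13:23831374-23831403 (plus strand) for *Hist1h1c*, chr13:23647649-23647678 (plus) for *Hist1h1d* and chr13:21871699-21871728 (minus) for *Hist1h1b*. That of *Hist3h2a* lies at chr11:58768667-58768696 (plus), that of *Hist1h2bc* at chr13:23776509-23776538 (plus) and that of *Hist1h2be* at chr13:23677393-23677422 (minus). Those of the H4 genes lie at chr3:96066855-96066884 (minus) for *Hist2h4* and chr13:22132828-22132857 (minus) for *Hist1h4i*. The 6 genes of H1, H2A and H2B shown share all 16 bases of the match and differ only in the flanks. In 48 of the 63 genes the annotated exons ran past the stem-loop, so that it lies in the 3′ UTR, and in 15, *Hist1h1b* among them, the annotated gene ended before or within it.

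Histone RNA made up a very small share of every library. The 69 genes held 2387, 1849 and 2375 counts in WT 1, 2 and 3, 3205, 2996 and 2975 in PIN 1, 2 and 3, and 5135 and 3261 in PCa 1 and 2. Total counts on genes ran from 21751803 to 29730420, and the histone share of them from 0.00631% to 0.0218%. In CPM (counts brought to the same library size, after adjustment by the trimmed mean of M-values), the summed level was 118, 83.8 and 86.9 in WT, 115, 103 and 112 in PIN, and 165 and 112 in PCa. PCa 1 was the highest library, while PCa 2 lay within the WT range. Per total count, with no such adjustment, PCa 2 stood above WT as well, at 133 CPM against 63.1 to 110. The adjusted group means were 96.2 ± 18.9 in WT (SD, n = 3), 110 ± 6.3 in PIN (SD, n = 3) and 139 ± 37.8 in PCa (SD, n = 2). A sum over chosen genes was given no test.

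**Figure D1:**
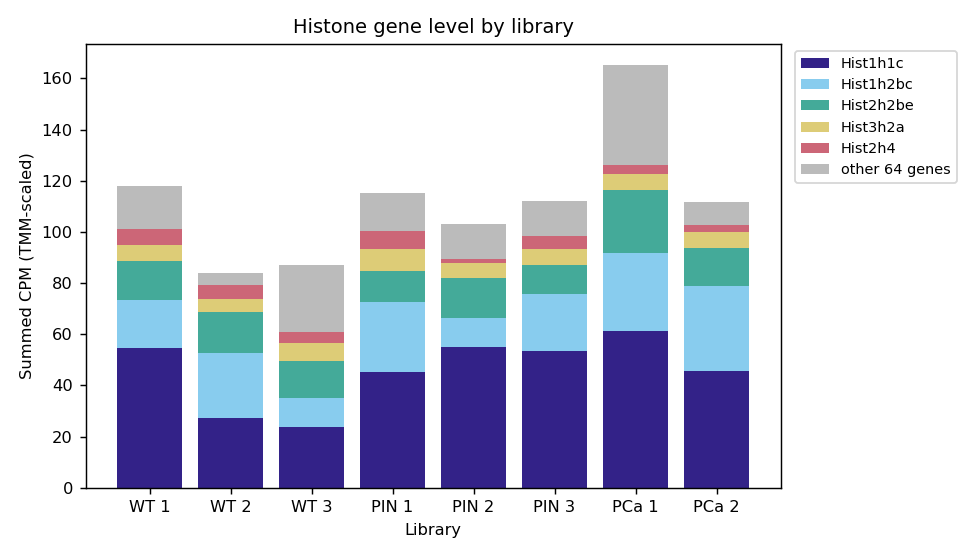
Summed histone CPM (y axis) in each of the 8 libraries (x axis), with each bar split into the 5 genes of highest mean level and the other 64 genes. The bars reach 83.8 to 118 CPM in WT, 103 to 115 in PIN and 165 and 112 in PCa, and the 5 named genes take 70.1% to 94.4% of each.

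A handful of genes carried nearly all of this signal. *Hist1h1c* (linker histone H1.2), *Hist1h2bc*, *Hist2h2be* (both H2B), *Hist3h2a* (H2A) and *Hist2h4* (H4) together held 70.1% to 94.4% of the summed CPM of a library. At the other end, 6 of the 69 genes had 0 counts in all 8 libraries, 27 had 1 to 9 counts over all libraries, and 36 had 10 or more. A level of 3 counts, the limit that a count of 0 allows, equals 0.0965 to 0.148 CPM in these libraries, a figure that covers counting error only. In PCa 1, 11 genes were at 0, against 29 to 44 in each other library. The families differed in level as their leading genes did, with summed CPM of 25 to 67.9 for H1, 32.6 to 72.4 for H2B, 5.26 to 16.5 for H2A, 2.1 to 9.34 for H4 and 1.17 to 4.18 for H3 across the libraries.

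**Figure D2:**
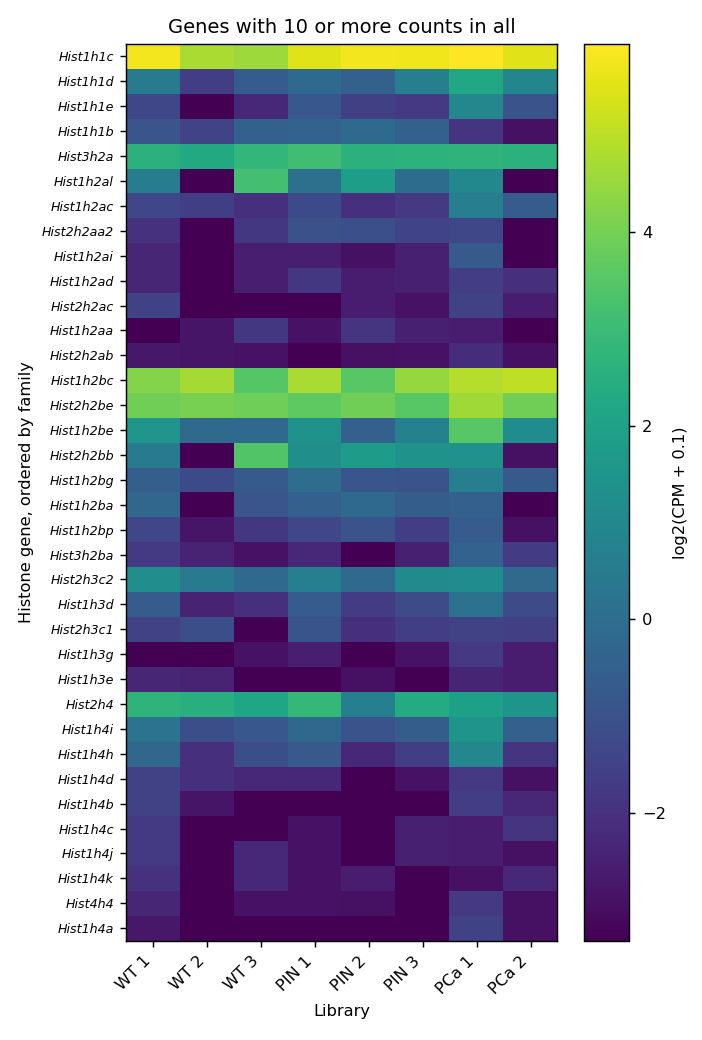
Level of the 36 histone genes with 10 or more counts in all (rows, ordered by family and then mean level) in the 8 libraries (columns), as log2(CPM + 0.1). *Hist1h1c*, *Hist1h2bc*, *Hist2h2be*, *Hist3h2a* and *Hist2h4* form bright rows in every library, and most other rows are near the floor.

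The genes with signal were mainly those whose annotated exons run well past the stem-loop. With the limit set at 200 bases after the values had been seen, 14 genes had more exon than that beyond the stem-loop, and these held 55.3% to 83% of the summed histone CPM. Per kb of exon, their mean levels over the 3 groups ran from 0.00173 to 31.9 CPM per kb, with a median of 0.355. Not all of the 14 had much signal, as 8 of them had at most 45 counts in any library. In 49 genes the annotation ended within 200 bases, and these together held 1.89% to 7.61% of the sum, with a median of 0.0687 CPM per kb and none above 1.77. Of the genes nearest the limit, *Hist1h1t*, with 179 bases, had 0 CPM per kb, and *Hist1h2bp*, with 228 bases, had 0.366. The remaining 4 searched genes had no exact match, and 1 of them was *Hist2h2be*, at 6.15 CPM per kb. The poly(A) signal AATAAA stood in the last 50 exon bases, on the gene's strand, of 11 histone genes, among them *Hist1h1c*, *Hist1h2bc*, *Hist2h2be* and *Hist2h4*, and of 54.5% of all protein-coding genes. The ends are those of the annotation, and where the reads of these libraries ended was not analysed here.

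**Figure D3:**
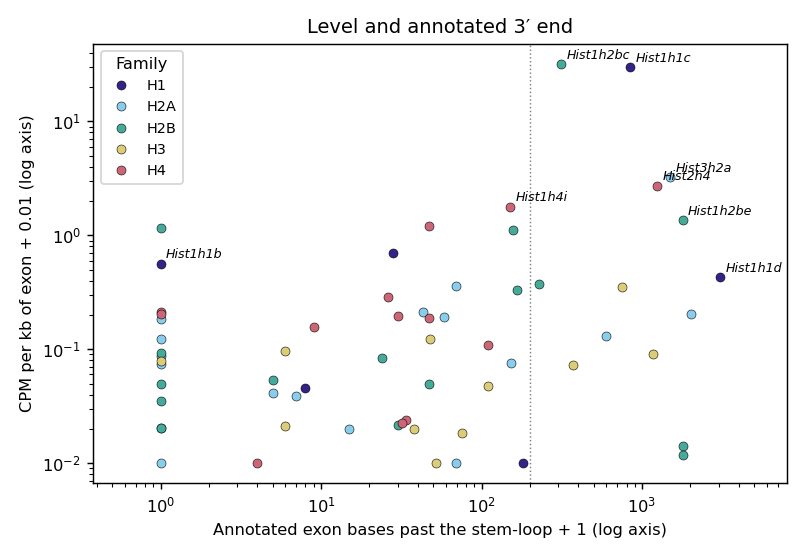
Mean level per kb of exon over the 3 groups (y axis, CPM per kb + 0.01, log axis) against annotated exon bases past the stem-loop (x axis, bases + 1, log axis) for the 63 genes with a match, coloured by family. The dotted line marks 200 bases; *Hist1h1c* and *Hist1h2bc* stand at the top right of it, and the 49 genes to its left lie at 1.77 CPM per kb or lower.

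Shared sequence limits these values. Of the 69 genes, 32 had under 50% of their 50-base exon stretches unique in the mm9 genome, 6 had none, and 8 overlapped exons of another gene. The counting settings for reads with several matches and for strand are not given in the sources used here, so low values of such genes are uncertain. The genes *Hist1h1a*, *Hist1h1b*, *Hist1h1t*, *Hist1h2aa* and *Hist4h4* each had a stem-loop, a short annotated end and at least 90% unique stretches, and *Hist1h1t* and *Hist1h2aa* are known from testis. Their counts ran from 0 to 17 in WT, 0 to 23 in PIN and 0 to 6 in PCa. *Hist1h1a* had 0 counts in 6 libraries, 1 in PIN 1 and 4 in PCa 2. *Hist4h4*, an H4 gene known to give polyadenylated RNA in differentiated tissue, had 0 to 2 counts in WT, 0 or 1 in PIN, and 6 and 1 in PCa. *Hist1h1b* was the highest of the 5, with 6 to 23 counts in each WT and PIN library, above the level of 3 counts, and 5 and 1 in PCa. The cause of the low values was not tested.

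The comparison of PIN with WT asks whether these genes differ in the precursor lesion. Of the 69 genes, 10 had more than 1 CPM per total count, without the adjustment between libraries, in at least 2 libraries and were tested. A gene was called by edgeR's quasi-likelihood test (edgeR QL) when its log2 fold change exceeded 1 in size and its p-value, adjusted by Benjamini-Hochberg over all 14034 tested genes, was under 0.05. By this rule 0 of the 10 were called, as were 0% of all tested genes. None of the 10 had an unadjusted p-value under 0.05, whereas 3.51% of all tested genes did, and DESeq2 called 0 of the 10, beside 0.278% of all tested genes. Their median log2 fold change was 0.07, beside -0.02 over all tested genes.

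The comparisons of PCa with WT and with PIN ask the same of the tumors. In PCa against WT, 0 of the 10 were called, beside 8.54% of all tested genes in either direction and 4.35% called higher. In PCa against PIN, 0 were called, beside 5.72% in either direction and 2.55% called higher. At an unadjusted p-value under 0.05, there were 2 histone genes in PCa against WT, *Hist1h1d* and *Hist1h2be*, and 0 in PCa against PIN, beside 27.5% and 22.8% of all tested genes. DESeq2 called 0 of the 10 in either, beside 17.7% of all tested genes over WT and 14.1% over PIN. The median log2 fold change of the 10 genes was 0.22 over WT and 0.07 over PIN, beside 0.01 and 0.07 over all tested genes. Of the 10, 2 were higher in each PCa library than in every WT library, an arrangement found for 17.7% of all tested genes. Without the filter on low values, 63 histone genes could be fitted, and 0 were called in PCa against WT, beside 5.01% of 21366 genes, or in PCa against PIN, beside 3.12%. In that fit 5 histone genes had an unadjusted p-value under 0.05 in each comparison with PCa, 7.94% of the 63, beside 21.7% of all genes over WT and 18.5% over PIN. The median of the 63 log2 fold changes was 0.98 over WT and 1.13 over PIN, beside 0.09 and 0.11 over all genes. These medians depend on how a group at 0 is treated. With such genes, 16 and 15 of the 63, set to their bound (3 counts in each library of the group at 0), the medians were 0.16 and 0.36, and over the 47 and 48 genes with no group at 0 they were 0.69 in both. Both comparisons rest on the same 2 PCa libraries.

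**Figure D4:**
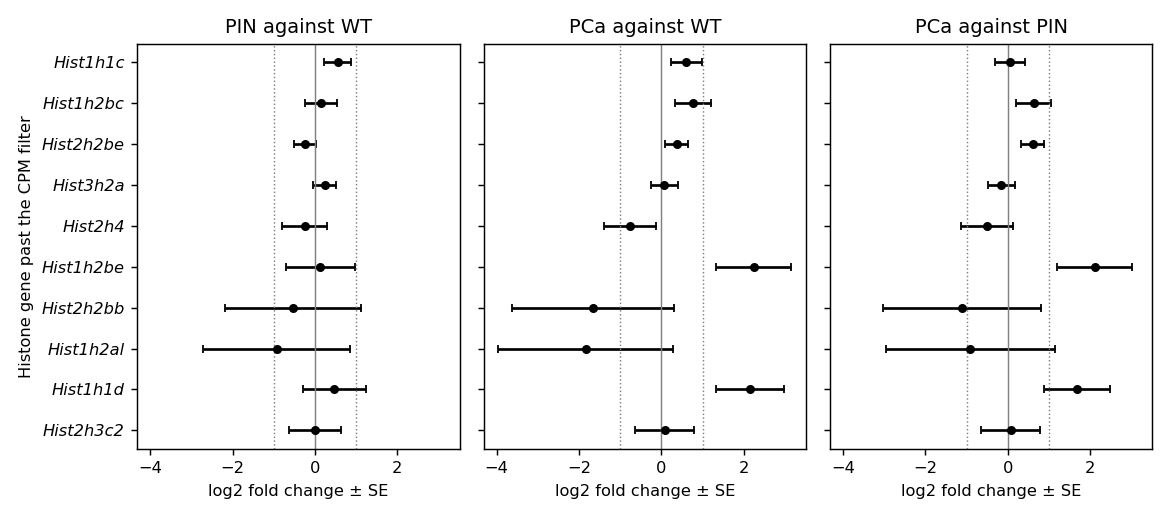
Log2 fold change ± standard error (x axis, edgeR) of the 10 tested histone genes (y axis, ordered by mean level) in the 3 comparisons, with dotted lines at -1 and 1. *Hist1h1d* and *Hist1h2be* lie furthest right in PCa against WT, at 2.15 and 2.24, and no gene passed the adjusted p-value in any panel.

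*Hist1h1c*, the linker histone gene of highest level, is annotated on chromosome 13 from 23830676 to 23832235. It had 54.6, 27.1 and 23.7 CPM in WT, 45.3, 54.9 and 53.5 in PIN, and 61.4 and 45.7 in PCa. WT 1 stood with the PIN and PCa libraries and WT 2 and WT 3 were lower, so the groups overlapped. The log2 fold change was 0.55 (SE 0.33, adjusted p = 1, edgeR QL) in PIN against WT, the lowest p-value there among the 10 histone genes past the CPM filter. In PCa against WT it was 0.61 (SE 0.37, adjusted p = 0.325, edgeR QL). Without WT 1 these values were 1.02 (adjusted p = 0.878) and 1.08 (adjusted p = 0.0571), by edgeR QL, and with other single libraries left out, the value over WT in PCa went down to 0.39.

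*Hist1h1d*, the gene of linker histone H1.3, is annotated on chromosome 13 from 23646901 to 23650721. It had 27, 5 and 15 counts in WT, 22, 18 and 40 in PIN, and 138 and 53 in PCa. As CPM these were 1.33, 0.227 and 0.549, then 0.792, 0.62 and 1.51, then 4.44 and 1.82, so both PCa libraries lay above every other library. The log2 fold change in PCa was 2.15 over WT (SE 0.82, adjusted p = 0.141) and 1.68 over PIN (SE 0.81, adjusted p = 0.268) (edgeR QL), and neither was called. With single libraries left out, the value over WT ran from 1.38 to 2.99.

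The remaining H1 genes did not pass the CPM filter, and *Hist1h1e* and *Hist1h1b* were chosen for mention after their values were seen. *Hist1h1e* (H1.4) had 6, 0 and 3 counts in WT, 13, 7 and 5 in PIN, and 57 and 12 in PCa. *Hist1h1b* (H1.5), at chromosome 13 from 21871752 to 21872494, had 9, 6 and 17 counts in WT, 18, 23 and 17 in PIN, and 5 and 1 in PCa. Both PCa libraries were below every WT and PIN library. In the fit without a filter, its log2 fold change was -2.17 in PCa against WT (SE 0.92, adjusted p = 0.214) and -2.80 in PCa against PIN (SE 0.94, adjusted p = 0.15) (edgeR QL). *Hist1h1t*, the testis linker histone gene, had 0 counts in every library.

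The H2B family held 4 of the 10 tested genes. *Hist1h2bc*, on chromosome 13 from 23776068 to 23784357, had 18.8, 25.5 and 11.2 CPM in WT, 27.3, 11.6 and 22.1 in PIN, and 30.2 and 33 in PCa. Both PCa libraries were above all others. Its log2 fold change was 0.77 over WT (SE 0.43, adjusted p = 0.293, edgeR QL), and 49.2% of its 50-base exon stretches were unique, so reads may be shared with other H2B genes.

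*Hist2h2be*, on chromosome 3 from 96025044 to 96027661, has no exact stem-loop match. It had 15.3, 16.2 and 14.8 CPM in WT, 12.3, 15.3 and 11.5 in PIN, and 24.7 and 15.1 in PCa. Only PCa 1 stood apart, and PCa 2 lay within the WT range. The log2 fold change was 0.37 over WT (SE 0.28, adjusted p = 0.446) and 0.61 over PIN (SE 0.28, adjusted p = 0.25) (edgeR QL), and without PCa 1 the value over WT was -0.02.

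*Hist1h2be* had 2.72, 0.816 and 0.805 CPM in WT, 2.52, 0.62 and 1.58 in PIN, and 11.4 and 2.19 in PCa. PCa 1 was far above every library, while PCa 2 was below WT 1 and PIN 1. The log2 fold changes of 2.24 over WT (SE 0.92, adjusted p = 0.164) and 2.11 over PIN (SE 0.91, adjusted p = 0.221) (edgeR QL), therefore rested on PCa 1, and leaving out single libraries moved the value over WT between 0.62 and 3.07. The gene's annotated exons overlap those of an unnamed gene on the same strand. *Hist2h2bb* differed more within WT than between groups, with 1.33, 0 and 10.7 CPM there, 2.34, 3.31 and 2.6 in PIN, and 2.48 and 0.0343 in PCa.

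Of the H2A genes, *Hist3h2a*, on chromosome 11 from 58768187 to 58770176, had 6.08, 4.89 and 6.88 CPM in WT, 8.39, 6.16 and 6.33 in PIN, and 6.34 and 6.14 in PCa. All groups overlapped, and the log2 fold change in PCa against WT was 0.07 (SE 0.33, adjusted p = 0.92, edgeR QL). Its exons overlap those of *Trim17* on the same strand. *Hist1h2al*, the other H2A gene tested, had 28, 0 and 242 counts in WT, 27, 103 and 23 in PIN, and 59 and 0 in PCa, with 28.6% of its 50-base exon stretches unique. *Hist1h2ac* fell short of the filter, with 4 to 6 counts in WT, 4 to 9 in PIN, and 45 and 16 in PCa, where both libraries exceeded all others. Its log2 fold change in PCa against WT without the filter was 2.11 (SE 0.82, adjusted p = 0.176, edgeR QL), and it too was picked for mention after its values were seen.

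The H3 and H4 families had 1 tested gene each. *Hist2h3c2*, an H3 row annotated without a coding sequence, had 2.22, 1.27 and 0.805 CPM in WT, 1.48, 0.792 and 2.03 in PIN, and 2.19 and 0.823 in PCa. Its groups overlapped throughout, and 35.9% of its 50-base stretches were unique. *Hist2h4* had 6.38, 5.44 and 4.39 CPM in WT, 7.02, 1.48 and 5.09 in PIN, and 3.64 and 2.71 in PCa. Both PCa libraries were below every WT library but above PIN 2, and its log2 fold change over WT was -0.77 (SE 0.63, adjusted p = 0.476, edgeR QL). *Hist1h4i*, the highest of the 49 short-ended genes per kb, had 21, 8 and 13 counts in WT, 21, 12 and 15 in PIN, and 83 and 18 in PCa. Again PCa 1 alone stood above the rest.

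The tumors also differed in the genes of few counts. Among the 26 genes under the filter with 10 or more counts, 15 had their highest CPM in PCa 1 and 0 in PCa 2. These are 57.7% and 0%, beside 34.6% and 15.4% of the 4211 genes of the whole table under the same limits. PCa 1 exceeded all WT libraries in 16 of the 26 (61.5%, beside 47.7% of the 4211) and PCa 2 in 5 (19.2%, beside 27.8%), and no test was run on these shares. The 49 short-ended genes summed to 126, 35 and 103 counts in WT, 147, 109 and 102 in PIN, and 391 and 91 in PCa, or 12.6 CPM in PCa 1 and 3.12 in PCa 2 beside 1.59 to 6.23 in WT. Only PCa 1 was outside the WT range. *Malat1*, a nuclear RNA whose end is formed without a poly(A) tail, was likewise highest there, at 4940 CPM against 1750 to 2230 in the other 7 libraries. Markers of other cells differed between the tumors as well. The 11 leukocyte markers of 12 found in the table summed to 214 CPM in PCa 1, 23.8 in PCa 2 and 23.9 to 73.7 in the WT and PIN libraries, and 0 of the 11 were at 0 in either PCa library. The 4 basal epithelial markers, all detected in every library, summed to 604 CPM in PCa 1, the highest library, 27.4 in PCa 2, the lowest, and 167 to 387 in WT and PIN. The part of these cells in the histone values was not tested.

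Genes of DNA replication and the cell cycle serve as a measure of S phase beside the histone genes. A list of 27 S phase genes summed to 212 to 287 CPM in WT, 262 to 332 in PIN, and 900 and 1110 in PCa. In PCa against WT, 16 of the 27 were called higher and 0 lower, beside 4.35% of all tested genes called higher, and the median log2 fold change was 1.72, beside 0.01. In PCa against PIN, 12 were called higher and 0 lower, beside 2.55% of all tested genes called higher, and the median was 1.55, beside 0.07. In PIN against WT, 0 were called. The count of 16 fell to 9 without WT 1, 10 without PIN 3 and 3 with only the WT and PCa libraries in the model. *Mki67*, a proliferation marker on this list, had 16.1 to 20.3 CPM in WT, 19.5 to 49.6 in PIN, and 223 and 305 in PCa. It thus made up a larger part of the S phase sums in PCa than in WT or PIN. Its log2 fold change over WT was 3.85 (SE 0.4, adjusted p = 0.00602, edgeR QL). *Ccna2*, the cyclin of S phase and G2, had a log2 fold change of 3.52 (SE 0.38, adjusted p = 0.00644) and *Rrm2*, a subunit of ribonucleotide reductase, 2.33 (SE 0.23, adjusted p = 0.00578), from the same test. For each histone count there were 1.91 to 3.3 S phase counts in WT, 2.54 to 2.96 in PIN, and 5.45 and 9.89 in PCa. This ratio needs no scaling between libraries, and PCa 2, with the lower histone sum, had the higher S phase sum. Its histone counts come mostly from *Hist1h1c*, *Hist1h2bc* and *Hist2h2be*, genes known to give polyadenylated RNA in differentiated tissue. With *Hist4h4*, these summed to 49.7 to 88.8 CPM in WT, 81.9 to 87.2 in PIN, and 117 and 93.8 in PCa. The ratio thus mainly sets the S phase genes beside these genes, and which RNA form was read was not tested. The S phase and histone lists were not tested against each other.

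**Figure D5:**
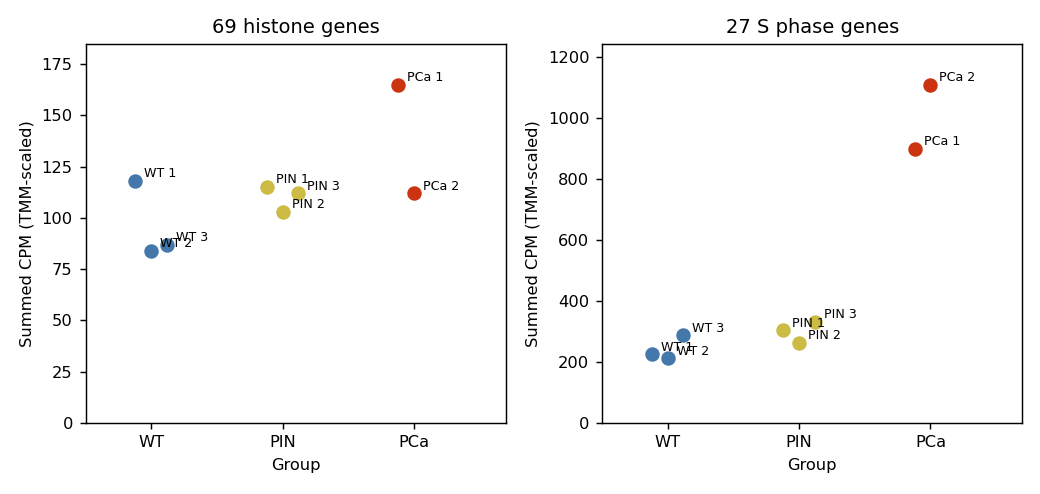
Summed CPM of the 69 histone genes (left) and of 27 S phase genes (right), 1 point per library, by group on the x axis. The y axes start at 0 and differ in scale, and most of each histone sum is from *Hist1h1c*, *Hist1h2bc* and *Hist2h2be*. The histone sums of PCa 2 and PIN overlap, whereas the S phase sums of both PCa libraries, 900 and 1110 CPM, lie above the 332 CPM that no WT or PIN library exceeded.

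The machinery that makes, trims and degrades histone mRNA was steadily detected. Of 18 genes listed, 17 were tested, 1 was called higher in PCa over WT and 0 lower, and the median log2 fold change was 0.11. Over all tested genes 4.35% were called higher and the median was 0.01, so a count of 1 in 17 is near the background. The called gene was *Eri1*, the exonuclease that trims the histone stem-loop, with 16.6 to 23.9 CPM in WT, 19.2 to 23.4 in PIN, and 45.8 and 49.2 in PCa. The change over WT was 1.26 on the log2 scale (SE 0.23, adjusted p = 0.0203, edgeR QL). By the same test, the call was lost without WT 3 (0.0755), without PIN 3 (0.0519) and with only the WT and PCa libraries in the model (0.11). It was also lost with replicate number added to the model. *Slbp*, which encodes the stem-loop binding protein, had 13.3, 15 and 20.1 CPM in WT, 19.8, 17.9 and 22.1 in PIN, and 27.9 and 37.9 in PCa. Both tumors were above all other libraries, at a log2 fold change of 1.02 that missed the threshold (SE 0.26, adjusted p = 0.0531, edgeR QL) and passed it with upper-quartile normalization (0.0493), with DESeq2 (0.0056) and without PCa 1 (0.027). *Npat* and *Casp8ap2*, coactivators of histone gene transcription, had 0.47 and 0.95 (adjusted p = 0.425 and 0.114, edgeR QL). *Lsm10* and *Lsm11*, the proteins particular to the U7 particle, had -0.02 and 0.11, and *Lsm10* changed sign with the normalization. *Zfp473* (2.47) and *Cstf2* (0.44), which take part in histone 3′ end processing, were not called.

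Histone chaperones carry histones to and from DNA. Of 16 listed, 4 were called higher in PCa over WT and 0 lower, with a median log2 fold change of 0.93, beside the 4.35% and 0.01 of all tested genes. *Asf1b*, a carrier of newly made H3 and H4, had 1.5 to 1.88 CPM in WT, 1.89 to 2.6 in PIN, and 13 and 11.3 in PCa, a log2 fold change of 2.87 (SE 0.35, adjusted p = 0.00791, edgeR QL). The others were *Chaf1b*, a subunit of chromatin assembly factor 1, at 2.30, *Hat1*, which acetylates new H4, at 1.46, and *Mcm2*, a helicase subunit that is also on the S phase list, at 1.68. The calls of *Chaf1b*, *Hat1* and *Mcm2* were lost when any of several single libraries was left out (that of *Asf1b* was not), with adjusted p-values of up to 0.0674, 0.0936 and 0.104, edgeR QL, and the list's count ran from 1 (without WT 3, PIN 1 or PIN 3) to 7 (without WT 2). With only the WT and PCa libraries in the model, none of the 4 calls held, and *Asf1b* had an adjusted p of 0.0621 by edgeR QL. *Chaf1a* (2.16), *Nasp* (0.69) and *Nap1l1* (0.98) were not called, the last on fold change alone (adjusted p = 0.0241, edgeR QL). Among 10 tested replication-independent variants, 1 was called higher, beside 4.35% of all tested genes. It was *Cenpa*, the centromeric H3, with a log2 fold change of 3.46 (SE 0.5, adjusted p = 0.0105, edgeR QL), which was not called with only the WT and PCa libraries in the model (0.0683). *H2afz*, *H2afx*, *H3f3a*, *H3f3b*, *H2afy* and *H1fx* had -0.61, 0.45, 0.55, 0.32, 0.72 and 2.49 and were not called, although *H1fx* passed without WT 1 and *H2afy* missed on fold change alone (adjusted p = 0.0412, edgeR QL). The median of the variants was 0.50, and none of these lists had a call in PIN against WT.

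The tissue of the libraries differed in more than group. Summed luminal markers, all 6 detected, were 10300 to 31800 CPM in WT and PIN and 3260 and 3070 in PCa. The 5 smooth muscle markers summed to 1910 CPM or more in WT and PIN and to 41.2 and 17.9 in PCa. The 7 seminal vesicle genes summed to 15900 CPM in WT 1, 0.634 and 0.769 in WT 2 and WT 3, 43.9 to 88.7 in PIN, and 3840 and 883 in PCa. WT 1 was also the WT library with the highest *Hist1h1c*, *Hist1h1d* and *Hist1h2be*. The library numbers in the labels form 3 series (WT 1; WT 2 and WT 3; all PIN and PCa), and if these are batches they cannot be told apart from the comparisons with WT.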

How the data were processed

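RNA of 8 mouse prostate libraries (3 WT, 3 PIN, 2 PCa) was sequenced paired-end after ribosomal RNA removal. The sample titles give group and replicate number and name no animal. The authors trimmed reads with cutadapt 1.9.1, aligned them to mm9 with HISAT2 2.1.0 and counted them per gene with HTSeq 0.6.1, per the submitters' processing notes, and the deposited values are raw counts. The deposited exon length per gene, another kind of value, served only for CPM per kb. Depth was 21751803 to 29730420 counts per library, which limits genes of few counts.

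Counts were fitted in R 4.3.3 with edgeR 4.0.16 (quasi-likelihood test, TMM, 3 groups in 1 model, 5 residual degrees of freedom). Genes with more than 1 CPM per total count, before TMM, in at least 2 libraries were tested, and p-values were adjusted over all of them. The common biological coefficient of variation was 0.489. The fit was also run on simulated data of lower variation than this, so recovery of changes at the spread found here was not checked. Standard errors were derived from each fold change with its F statistic. Members and lists were chosen with earlier results of these data known. The histone genes named were the 5 of highest mean CPM, the 3 of lowest p-value in each comparison, the highest of each family, those known to be polyadenylated (*Hist1h1c*, *Hist1h2bc*, *Hist2h2be*, *Hist4h4*) and those known from testis (*Hist1h1t*, *Hist1h2aa*, *Hist1h2ba*). Others (*Hist1h1a*, *Hist1h1b*, *Hist1h1e*, *Hist1h2ac*, *Hist1h2al*, *Hist1h2bp*, *Hist2h2bb*, *Hist1h4i*) were named after their values were seen. Companion genes were 13 set by name and up to 3 more of each list by lowest p-value in PCa against WT. Sequences were read from the mm9 genome with the GENCODE M1 annotation, in which 26195 of the 27036 table genes had the same coordinates. The alternatives were upper-quartile normalization, DESeq2 1.42.0, limma-trend (3.58.1), no filter, filterByExpr, models of 2 groups, a replicate block, no fold change limit and leaving out each library. The titles do not say that same-numbered libraries are paired, and the WT mice differed in genotype from those of PIN and PCa.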

Additional observations from a re-analysis of the deposited data

How the results depend on the processing

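Under each of the 16 alternatives, 0 histone genes were called in any comparison, and the lowest adjusted p-value of a histone gene was 0.812 in PIN against WT, 0.0571 in PCa against WT (without WT 1) and 0.0822 in PCa against PIN (without PCa 2). The same alternatives called 0 to 39 of all genes in PIN against WT, 123 to 2487 in PCa against WT and 78 to 2251 in PCa against PIN. Deviations of same-numbered libraries correlated at -0.0562 to 0.284 over 7 pairs, and 5 of 8 libraries correlated best with their own number. The deviations of the 2 PCa libraries mirror each other, so the pairs are not independent. These values therefore cannot decide whether replicate numbers pair the libraries. The replicate block called 0 histone genes and 0, 413 and 151 of all genes in the 3 comparisons.

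Of 750 values of 50 log2 fold changes, 681 kept direction and side of the threshold, 31 reversed, 12 passed it newly and 26 dropped below it. Under the block, the values in PCa against PIN were -0.09 for *Hist1h1c* and -0.02 for *Hist2h3c2*, which also had -0.02 over WT, and *Lsm10* over WT was 0.01 with upper-quartile normalization and 0 with DESeq2. With 1 library left out, signs turned in PIN against WT for *Hist1h2bc* (-0.14 to 0.44), *Hist2h4* (-0.73 to 0.16), *Hist1h2be* (-0.40 to 0.95) and *Hist2h3c2* (-0.33 to 0.47). They turned in PCa against WT for *Hist2h2be* (-0.02 to 0.70), *Hist3h2a* (-0.06 to 0.19), *Hist2h3c2* (-0.78 to 0.63), *Lsm10* (-0.12 to 0.06) and *H3f3b* (-0.43 to 0.83). In PCa against PIN they turned for *Hist1h1c* (-0.15 to 0.28), *Hist3h2a* (-0.24 to 0.02) and *Hist2h3c2* (-0.78 to 0.63). The cause was not tested.

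Calls in PCa against WT on the companion lists moved more. The processing list had 2 with upper-quartile normalization, 3 with DESeq2, 0 in the 2-group model, 0 with the block and 0 to 2 with 1 library left out. The chaperones had 0 in the 2-group model, 2 with the block and 1 to 7 with 1 library left out. The variants had 2 with DESeq2, 0 in the 2-group model, 2 without a fold change limit and 1 to 2 with 1 library left out, and the S phase genes 23 with DESeq2, 11 with the block, 3 in the 2-group model and 9 to 16 with 1 library left out (9 without WT 1, 10 without PIN 3). Without the 3 genes of highest level, the histone sum averaged 27.2 CPM in WT, 25.6 in PIN and 33.5 in PCa, and the other scalings moved the means by less than 1 SD. Comparisons with PCa are limited by the difference between its 2 libraries.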

Other observations

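Among the histone genes, 3 shared a pattern that was noticed after their values were seen. *Hist2h2bb* (27, 0 and 291 counts in WT, 65, 96 and 69 in PIN, 77 and 1 in PCa), *Hist1h2al* (28, 0 and 242; 27, 103 and 23; 59 and 0) and *Hist1h2ba*, a testis H2B gene (15, 0 and 12; 17, 23 and 15; 19 and 0), had at most 1 count in WT 2 and in PCa 2 and 10 or more in each of the other 6 libraries. Of 13213 genes with 10 or more counts in those 6 libraries, 13 of them histone genes, 10 had this pattern, the others being *Adrb3*, *Edn3*, *Inha*, *Lrrn3*, *Oprd1*, *Palm2* and *Ptchd1*. *Hist2h2bb* lies on chromosome 3, while *Hist1h2al* and *Hist1h2ba* lie on chromosome 13 and are annotated far apart there (from 51298057 and from 24025637). *Hist1h2aa*, a testis H2A gene next to *Hist1h2ba*, had 0 to 5 counts in every library and 0 in WT 1 and PCa 2.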
